A study of Bos taurus with 7 samples.

Results

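KIT and KITLG, a receptor and its ligand, are described here across 7 RNA sequencing libraries of bovine preantral follicles. The rule names both genes and sets no threshold on their values. They are 2 of the 23704 genes that could be matched in the data, and 3 of the 76123 transcript models were matched to them. Of all these models 50205 were matched to a gene, so the others could include further models of KIT or KITLG. Matched to KIT were a predicted and a curated model, and to KITLG 1 curated model.

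The libraries were made from pools of isolated follicles of cattle (Bos taurus), 3 of secondary follicles (SF) and 4 of primary follicles (PF), all taken at T0, after collection. The paper reports ovaries of young Holstein Friesian dairy cows from an abattoir. Its secondary follicles were early ones, as larger ones were left out by sieving. After isolation the follicles recovered for 1 h in a warm medium with insulin, transferrin and FSH, and were then stored in lysis buffer. A primary follicle is an oocyte with a single layer of cuboidal granulosa cells, and a secondary follicle has more than 1 layer and a larger oocyte. Whole follicles were sequenced, so RNA of oocyte and granulosa cells was read together, and less RNA of a gene per cell cannot be told apart from a smaller share of the cells that make it. PF replicate 4 was removed by the study as an outlier and is shown here beside the other libraries but kept out of the tests unless stated.

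KIT is a receptor tyrosine kinase at the cell surface, of the class that also holds the PDGF receptors and CSF1R. In the ovary it is known from the oocyte and, around larger follicles, from theca cells. KITLG, also called stem cell factor, is made by granulosa cells as a membrane-bound form and as a form that proteases release. Ligand binding pairs receptor chains, which recruit adaptors, SRC kinases and PI3 kinase, and in mouse oocytes the route through PI3 kinase, AKT and FOXO3 is known for its part in the awakening of resting follicles.

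The libraries held 18788105 to 23764615 estimated counts, with 12188 to 13034 genes at 1 TPM or more. TPM is a level corrected for transcript length, with an equal sum in every library. The summed level of 27 matched oocyte markers was 890 to 3483 TPM in SF and 5134 to 9904 TPM in PF replicates 1 to 3. That of 24 granulosa markers was 8610 to 9856 TPM in SF and 2559 to 3852 TPM in the same PF libraries. GSTA1 alone gave 3935 to 5141 TPM of the granulosa sum in SF and 913 to 1604 TPM in these PF libraries. WT1, another member, went the other way, with a mean of 2.41 TPM in SF and 8.36 TPM in PF. PF replicate 4 stood apart, with 1782 TPM of oocyte markers, 3599 TPM of granulosa markers, 6228 TPM of stromal markers against 432 to 638 TPM in the other PF libraries, and 1519 TPM of theca and interstitial markers against 180 to 267 TPM. The stromal sums rested on different genes. DCN made up most of them in PF replicates 1 to 3, at 390 to 573 TPM, and was lower in PF replicate 4, at 168 TPM. There COL1A2, COL3A1 and LUM were at 2762, 1097 and 1054 TPM. No source used here ties animals to libraries. Each p-value therefore reflects how far these particular samples spread, and part of that spread may be technical.

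KIT, the receptor, fell in SF. Its level was 8.85, 8.77 and 1.85 TPM in SF replicates 1 to 3, against 46.3, 50.04 and 28.7 TPM in PF replicates 1 to 3 and 65.5 TPM in PF replicate 4. Every SF library was below every PF library, and the groups did not overlap. The share of all genes that separate in this way is not given here, so the separation alone does not set KIT apart. The lowest library was SF replicate 3, the one with the fewest oocyte transcripts, and the highest was PF replicate 4. The mean level was 6.49 ± 4.02 TPM in SF and 41.7 ± 11.4 TPM in PF (SD, n = 3 each), a mean 6.43-fold higher in PF.

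The levels rested on 782, 645 and 140 estimated counts of KIT in SF, against 3528, 3861 and 2188 in PF replicates 1 to 3 and 4516 in PF replicate 4. The log2 fold change of SF over PF was -2.60 ± 0.57 (SE, DESeq2 adjusted p = 0.00018). Of 15056 genes tested, 19.1% passed the threshold of an adjusted p below 0.05 and 11.0% passed it in the direction of KIT. Among the 1650 genes called lower in SF, the median log2 fold change was -1.89, and 390 of them fell further than KIT.

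The place of KIT among the transcripts of a library differed between the groups in the same way. In SF replicates 1 to 3, KIT was at or above 38.3%, 36.1% and 8.51% of the genes at 1 TPM or more, against 71.5%, 74.0% and 67.5% in PF replicates 1 to 3 and 79.2% in PF replicate 4. It was thus in the lower part of the ranking in SF and in the upper part in PF.

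The fall of KIT kept its sign in each alternative fit, but its call did not hold with each tool. With PF replicate 4 kept, the log2 fold change was -2.88 ± 0.58 (DESeq2 adjusted p = 1.2e-04), and without any 1 library it was -2.92 to -2.15 with adjusted p of 1.1e-10 to 0.0064. The quasi-likelihood test of edgeR gave -2.52 with an adjusted p of 0.067, and limma gave -2.68 with 0.057, or 0.043 with a mean-variance trend. In edgeR no gene of the table passed, although 4044 had an unadjusted p below 0.05.

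**Figure D1:**
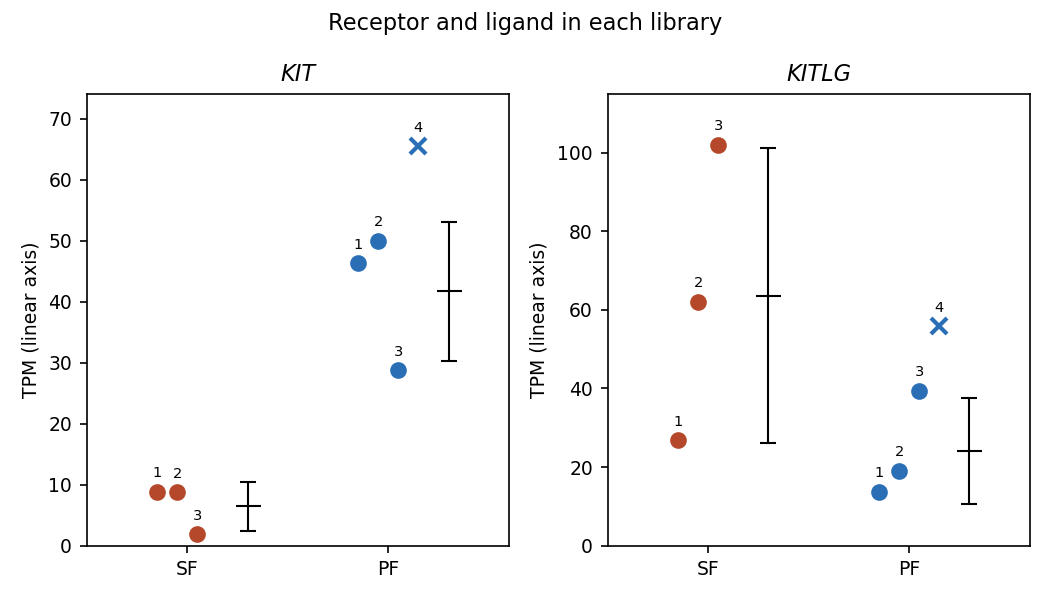
Levels of KIT (left) and KITLG (right) in TPM on linear axes, SF to the left of PF. Each point is a library with its replicate number, the cross is PF replicate 4, and the bars are the mean ± SD of replicates 1 to 3; KIT is at 1.85 to 8.85 TPM in SF and at 28.7 to 65.5 TPM in PF with no overlap, whereas KITLG overlaps between the groups.

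The oocyte list was lower in SF, as KIT was: 16 of its 27 tested members fell and none rose. Its median log2 fold change was -1.76, against 0.02 over all genes tested, of which 11.0% were called lower. With PF replicate 4 kept, 4 of the 27 fell, and limma called 0 of them, 20 with an unadjusted p below 0.05. KIT was therefore also set against the oocyte transcripts of its own library, as log2(TPM + 1) of KIT minus the mean log2(TPM + 1) of the list. This difference was -2.04, -2.13 and -1.74 in SF replicates 1 to 3, against -1.38, -1.30 and -1.11 in PF replicates 1 to 3. KIT was lower relative to these transcripts in each SF library, by 0.71 on average (SF minus PF -0.71, exact two-sided permutation test p = 0.1, the smallest that 3 against 3 libraries allow). With the median of the list in place of its mean the difference was -0.23 and the groups overlapped (exact permutation p = 0.4).

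PF replicate 4 was far from the others in this measure, at 2.35. It had the highest KIT level of all 7 libraries and a mean oocyte score of 3.71, against 6.0 to 6.97 in the other PF libraries. With it included the difference was -1.61 (exact permutation p = 0.114, with 0.0286 as the smallest p possible). The summed stromal, theca and smooth muscle markers were high in the same library, and their part in its KIT level was not tested. When the count model was scaled to the oocyte list, the log2 fold change of KIT was -0.75 ± 0.78 (DESeq2 adjusted p = 0.42), under a scaling that moved the median of all genes to 2.46.

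Mast cells also carry KIT. Of 8 mast cell markers, 5 were matched, and they summed to 0 to 0.063 TPM in SF and to 0 TPM in each PF library. CPA3, MS4A2, FCER1A and TPSB2 were listed at 0 in all 7 libraries.

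Most KIT reads in each library were assigned to the predicted model XM_005207937, of 5148 bases. The curated model NM_001166484 has 5144 bases, a length difference of 4 bases, and reads that fit both were divided between them by the quantifier, so the split is an estimate. The predicted model held 87.4%, 100% and 78.1% of the KIT level in SF replicates 1 to 3, against 100%, 90.6% and 94.7% in PF replicates 1 to 3 and 89.1% in PF replicate 4. Its mean share was 88.5 ± 11.0% in SF and 95.1 ± 4.71% in PF, and the difference of -6.61 percentage points was within the spread of the libraries (exact permutation p = 0.5, smallest possible 0.1).

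Fitted per model, XM_005207937 had a log2 fold change of -2.67 ± 0.75 (DESeq2 adjusted p = 0.0070) in a comparison where 9.84% of 37737 transcript models passed. NM_001166484 had -1.93 ± 2.60 (DESeq2 adjusted p = 0.76), and it was listed at 0 in SF replicate 2 and in PF replicate 1. When curated models alone stood for each gene, KIT rested on this model and its call was lost (-1.89 ± 2.17, DESeq2 adjusted p = 0.61).

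KITLG, the ligand, had a higher mean in SF, but its difference did not pass the test. Its level was 26.8, 62.1 and 102 TPM in SF replicates 1 to 3, against 13.7, 19.0 and 39.3 TPM in PF replicates 1 to 3 and 55.8 TPM in PF replicate 4. The groups overlapped, since SF replicate 1 was below PF replicates 3 and 4. The mean level was 63.6 ± 37.6 TPM in SF and 24.0 ± 13.5 TPM in PF (SD, n = 3 each), a ratio of 2.65.

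The levels rested on 347, 669 and 1122 estimated counts of KITLG in SF, against 152, 210 and 441 in PF replicates 1 to 3 and 561 in PF replicate 4. Its model, NM_174375, has 911 bases, and by counts, which are not corrected for length, KITLG was above KIT in SF replicates 2 and 3 alone. The log2 fold change was 1.47 ± 0.72 (DESeq2 adjusted p = 0.14, unadjusted p = 0.041). Beside it, 8.14% of the genes tested were called higher in SF, and 1480 genes had a larger log2 fold change than KITLG. In the ranking of genes at 1 TPM or more, KITLG was at or above 63.7%, 80.1% and 87.9% of them in SF, against 43.8%, 52.9% and 74.4% in PF replicates 1 to 3 and 76.3% in PF replicate 4.

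The call of KITLG depended on PF replicate 3, without which the log2 fold change was 2.21 and passed (DESeq2 adjusted p = 0.011). Without SF replicate 3 it was 0.84 (DESeq2 adjusted p = 0.53), and with PF replicate 4 kept it was 1.00 ± 0.74 (DESeq2 adjusted p = 0.47). No other omission of 1 library gave a call.

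The granulosa list was higher in SF, where 12 of its 21 tested members rose and none fell. Its median log2 fold change was 1.38, against 8.14% called higher and a median of 0.02 over all genes tested. With PF replicate 4 kept, 8 of 20 rose, and limma called 0 of 22, 14 with an unadjusted p below 0.05. KITLG minus the mean of this list was -0.56, 0.54 and 0.56 in SF replicates 1 to 3, against -0.98, -0.16 and 1.15 in PF replicates 1 to 3 and 1.00 in PF replicate 4. Relative to granulosa transcripts KITLG was thus high and low in both groups, and the difference of 0.17 was far below the spread between libraries (exact permutation p = 0.9). Scaled to the granulosa list, the fold change of KITLG turned to -0.062 ± 0.72 (DESeq2 adjusted p = 0.95), under a scaling that moved the median of all genes to -1.35. Scaled to the oocyte list it was 4.25 ± 1.14 and passed (DESeq2 adjusted p = 0.0022).

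**Figure D2:**
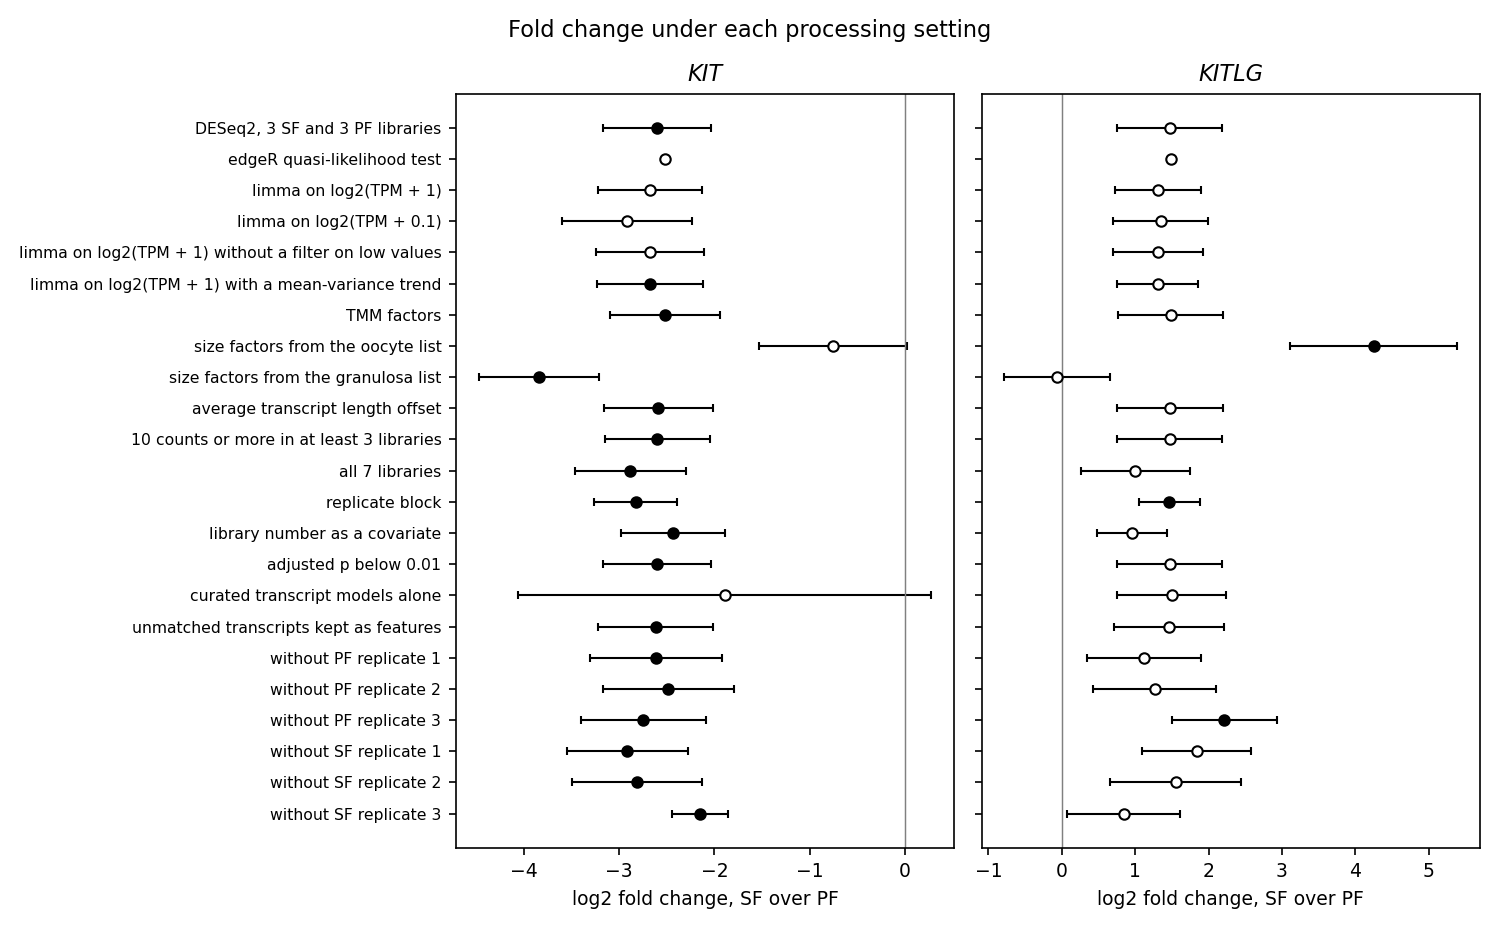
Log2 fold change of SF over PF for KIT (left) and KITLG (right) under each processing setting, one per line, with the standard error as a bar where the tool gives one. Filled points passed the threshold and open points did not; KIT is below 0 in each fit, from -3.84 to -0.75, and KITLG is above 0 except for -0.062 with granulosa-list size factors.

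The balance of ligand and receptor within a library separated the groups. KITLG minus KIT on the log2(TPM + 1) scale was 1.50, 2.69 and 5.17 in SF replicates 1 to 3, against -1.69, -1.35 and 0.44 in PF replicates 1 to 3 and -0.23 in PF replicate 4. On this scale, which is corrected for length, the ligand was above the receptor in each SF library, and in PF in replicate 3 alone. By estimated counts the ligand was above the receptor in SF replicates 2 and 3 alone. The mean was 3.12 ± 1.88 in SF and -0.87 ± 1.14 in PF, a difference of 3.99 (SD, n = 3 each, exact permutation p = 0.1, the smallest possible). With all 7 libraries the difference was 3.83 and the groups again did not overlap (exact permutation p = 0.0286, the smallest possible).

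This measure does not depend on how the libraries are scaled to each other beyond the pseudocount of 1, and with a pseudocount of 0.1 the difference was 4.27. It does mix the genes of 2 cell types, and the oocyte and granulosa lists moved apart in the same libraries. Their part in the balance was not tested.

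**Figure D3:**
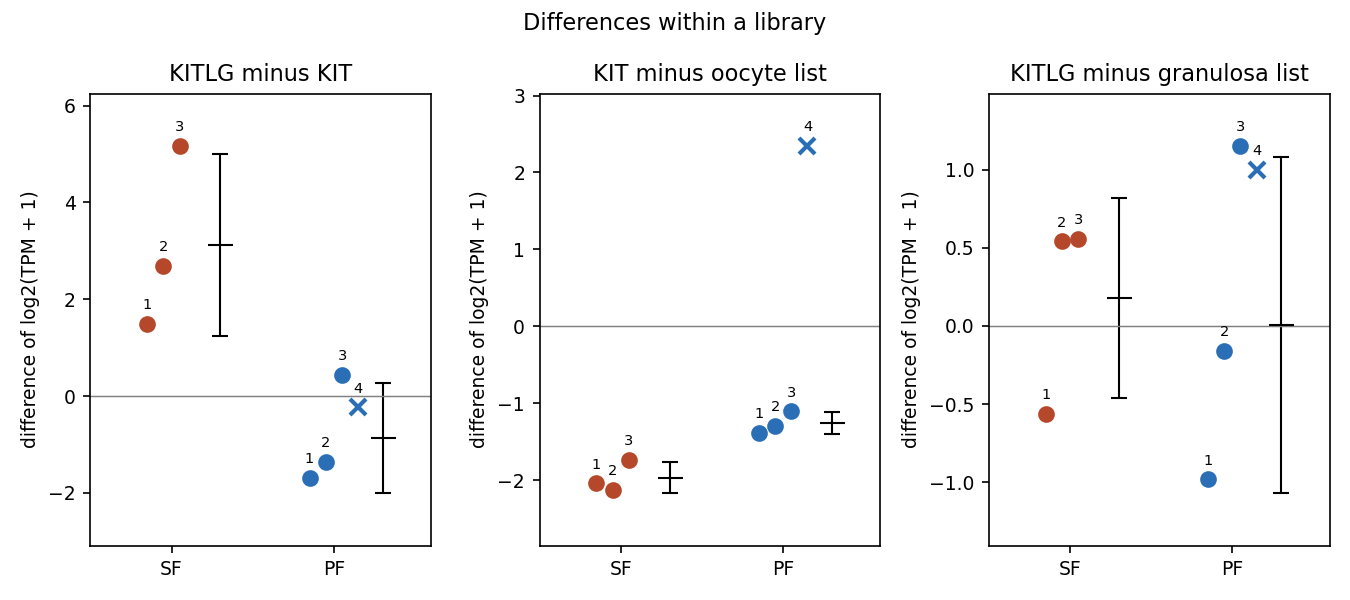
Differences of log2(TPM + 1) within each library for KITLG minus KIT (left), KIT minus the oocyte list (middle) and KITLG minus the granulosa list (right), SF to the left of PF. Points are libraries with their replicate numbers, the cross is PF replicate 4 and bars are the mean ± SD of replicates 1 to 3; the left panel has no overlap, PF replicate 4 is at 2.35 in the middle panel, and the groups overlap in the right one.

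The library names carry a number, below 40 in 3 libraries and above 40 in the other 4, whose meaning no source used here states. KIT was lower in SF within both sets, with a difference of SF minus PF on the log2(TPM + 1) scale of -2.32 among the numbers below 40 and of -2.49 among those above, PF replicate 4 left out. KITLG differed by 0.70 and 1.00 in the same sets. The balance of KITLG and KIT differed by 3.02 and 3.49. Each set held 1 or 2 libraries of a group, so no test was made within them.

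By the root mean square difference of centred log2(TPM + 1) over the 7 libraries, the profile nearest to KIT was that of EPB41L3 (0.25), a membrane skeleton gene, at 3.42, 3.47 and 0 TPM in SF against 23.5, 22.4, 8.25 and 32.1 TPM in PF. PTPN5, a tyrosine phosphatase gene, PDGFD, a PDGF ligand gene, ORAI2, a calcium channel gene, and SPDL1, a spindle gene, followed at 0.43, 0.45, 0.47 and 0.48. In PF replicate 4 each of these 5 genes, like KIT, was above its level in PF replicate 3. They were picked over all 7 libraries, PF replicate 4 included, so this likeness is not independent of the choice. In all, 6 of 13396 genes compared were within 0.5 of KIT. The median distance to KIT was 1.55 for the oocyte list, 2.28 for the granulosa list and 1.62 for all genes.

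For KITLG 307 genes were within 0.5, which is 2.29% of those compared. The nearest were LUC7L (0.13), a splicing factor gene, RNF19A (0.13), a ubiquitin ligase gene, CAVIN1 (0.17), a caveola gene, ZFP36L2 (0.18), an mRNA decay gene, and SRSF3 (0.19), a splicing factor gene. The median distance to KITLG was 1.11 for the granulosa list, 2.32 for the oocyte list and 1.17 for all genes. KIT and KITLG were 2.24 apart.

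Genes that carry or restrain the KIT signal, proteases and inhibitors for the ligand, and related receptors with their ligands were counted in 6 lists by role. Of their 74 tested members, 5 rose and 5 fell in SF, or 13.5%, against 19.1% of all genes. With PF replicate 4 kept, 0 members passed in DESeq2 and 13 had an unadjusted p below 0.05. Limma called none of them on log2(TPM + 1), or 1 gene with a mean-variance trend. With the regulators described last, the 7 lists held 5 calls higher and 12 lower in SF. No higher call held when scaled to the granulosa list, and no lower call held when scaled to the oocyte list.

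Next to the receptor, 1 of 12 tested adaptors fell, SH2B2, an adaptor that binds the activated receptor, at 28.1, 21.2 and 5.55 TPM in SF against 101, 95.9 and 54.8 TPM in PF replicates 1 to 3 and 7.94 TPM in PF replicate 4 (log2 fold change -2.07 ± 0.54, DESeq2 adjusted p = 0.0022). SH2B2 passed without any 1 library but not with PF replicate 4 kept (DESeq2 adjusted p = 0.19). SOS2, an activator of RAS, rose by 1.54 ± 0.58, with its call lost without PF replicate 1 or 2 or any 1 SF replicate (DESeq2 adjusted p = 0.077 to 0.20). GRB2, the adaptor that joins receptors to RAS, was at 101 ± 19.3 TPM in SF and 75.7 ± 5.41 TPM in PF (DESeq2 adjusted p = 0.21).

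Among SRC, JAK and STAT genes, 1 of 9 counted rose, the kinase JAK2, by 1.76 ± 0.55 (DESeq2 adjusted p = 0.012). Of 21 genes counted of the PI3 kinase, AKT, mTOR and FOXO route, the kinases AKT1 and AKT2 rose by 0.73 ± 0.23 and 1.69 ± 0.64, and RPTOR, a part of an mTOR complex, fell by 1.34 (DESeq2 adjusted p = 0.014, 0.044 and 0.016). AKT1 turned to -0.61 when scaled to the granulosa list, and RPTOR turned to 0.80 when scaled to the oocyte list. The calls of these 4 genes ended without PF replicate 1 (adjusted p of 0.080 to 0.17) or 2 (0.054 to 0.16), and, except for RPTOR, without SF replicate 2 (0.057 to 0.20). Those of JAK2 and AKT2 also ended without SF replicate 3 (0.096 and 0.19). PF replicate 4 held JAK2, AKT1 and AKT2 at 15.5, 201 and 14.8 TPM, above each SF library. It held RPTOR at 10.2 TPM, within the range of SF. With PF replicate 4 kept, none of the 4 genes passed (DESeq2 adjusted p = 0.18 to 0.86).

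FOXO3, PIK3CA and PIK3R1, genes of the known oocyte route, did not pass in the main DESeq2 comparison. With the replicate number as a block in the model, PIK3CA and PIK3R1 passed (DESeq2 adjusted p = 0.021 and 1.1e-05). The paper lists PIK3R1 among its candidate hub genes of the step from PF to SF, which it drew from its called genes. FOXO3, the transcription factor that AKT moves out of the nucleus, was at 73.1 ± 17.3 TPM in SF and 65.3 ± 20.7 TPM in PF (DESeq2 adjusted p = 0.74). PIK3CA, a catalytic subunit, was at 9.33 ± 6.86 TPM in SF and 3.76 ± 2.39 TPM in PF (DESeq2 adjusted p = 0.19). In PF replicate 4 it was at 23.5 TPM, above each SF library. PIK3R1, a regulatory subunit, was at 64.6, 172 and 488 TPM in SF against 43.9, 45.2 and 102 TPM in PF replicates 1 to 3 (log2 fold change 2.04 ± 0.79, DESeq2 adjusted p = 0.053). It passed without PF replicate 3 (0.0050) or SF replicate 1 (0.0091), and without SF replicate 3 its log2 fold change was 0.84 (0.46).

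Of 15 genes that restrain the receptor, PRKCA, a protein kinase C, and SH2B3, an inhibitory adaptor, fell by 2.03 and 2.37 (DESeq2 adjusted p = 0.013 and 0.015). Both calls ended without PF replicate 1 (0.13 and 0.10) or PF replicate 2 (0.063 and 0.13), and that of SH2B3 also without SF replicate 1 (0.069) or SF replicate 3 (0.079). CBL, the ubiquitin ligase that marks KIT for degradation, was at 3.78 ± 1.68 TPM in SF and 3.88 ± 3.16 TPM in PF (DESeq2 adjusted p = 0.90).

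For the ligand, 1 of 10 tested proteases and inhibitors rose, TIMP3, an inhibitor of ADAM17. It was at 133, 294 and 484 TPM in SF against 53.4, 51.3 and 126 TPM in PF replicates 1 to 3 (log2 fold change 2.05 ± 0.65, DESeq2 adjusted p = 0.014), while PF replicate 4 was at 428 TPM and the call was lost with it (0.64). It was also lost without PF replicate 1 or 2 (0.096 each), SF replicate 2 (0.053) or SF replicate 3 (0.11). ADAM17, a protease that can release KITLG, was at 7.63 ± 0.70 TPM in SF and 9.76 ± 6.80 TPM in PF (DESeq2 adjusted p = 0.86). MMP9, known in mouse bone marrow for the release of KITLG, was listed at 0, 0.38 and 0.95 TPM in SF and at 0, 0.030 and 0 TPM in PF replicates 1 to 3.

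Among 7 tested genes of related receptors and their ligands, CSF1R fell. It was at 11.6, 16.3 and 1.82 TPM in SF against 89.2, 62.0 and 31.5 TPM in PF replicates 1 to 3 and 7.46 TPM in PF replicate 4 (log2 fold change -2.53 ± 0.70, DESeq2 adjusted p = 0.0038, and 0.10 with PF replicate 4 kept). CSF1R is also a macrophage marker. The 10 immune markers, CSF1R included, summed to 33.0, 21.0 and 3.92 TPM in SF replicates 1 to 3. In PF replicates 1 to 3 they summed to 89.7, 64.3 and 41.1 TPM, and in PF replicate 4 to 8.39 TPM. Most of each PF sum was CSF1R itself, so the sums do not show other immune markers higher in PF. CD163 and CD2 were listed at 0 in all 7 libraries, while others were detected in some, such as TYROBP at 11.4 TPM and AIF1 at 6.98 TPM in SF replicate 1 and CD68 at 5.13 TPM in PF replicate 3. Their part in the CSF1R result was not tested. PDGFRA, a receptor of the same class, was at 1.97 ± 1.29 TPM in SF and 1.45 ± 1.52 TPM in PF, and at 117 TPM in PF replicate 4.

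Among 11 regulators of expression and oocyte factors that were counted, 7 fell with KIT, with a median log2 fold change of -2.62 over the 11, against 11.0% called lower and a median of 0.02 over all genes tested. With PF replicate 4 kept, 4 of 10 fell, and limma called 0 of 10, 7 with an unadjusted p below 0.05. All 7 that fell are also in the oocyte list, so they are not independent of it. SOHLH1 and LHX8, transcription factors that in the mouse lie upstream of Kit in oocytes, fell by 3.26 and 2.71 (SE 0.62 and 0.55, DESeq2 adjusted p = 1.3e-05 and 5.4e-05). SOHLH1 was at 14.6, 17.5 and 3.80 TPM in SF against 81.3, 198 and 82.7 TPM in PF replicates 1 to 3, and at 10.4 TPM in PF replicate 4.

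LHX8 was at 18.0, 28.3 and 5.76 TPM in SF against 144, 146 and 71.3 TPM in PF replicates 1 to 3, and at 12.3 TPM in PF replicate 4. In PF replicate 4, the library with the highest KIT level, SOHLH1 and LHX8 were thus within the range of the SF libraries. The reason for this was not tested. NOBOX, an oocyte transcription factor, fell by 2.83 (DESeq2 adjusted p = 2.9e-05).

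BMP15 and GDF9 are oocyte growth factors known to act on Kitl in granulosa cells of rodents. They fell by 3.48 and 1.62 (DESeq2 adjusted p = 1.1e-04 and 0.013). SOHLH1, LHX8, NOBOX and BMP15 passed with PF replicate 4 kept and without any 1 library. GDF9 did not pass with PF replicate 4 kept (0.41) or without PF replicate 2 (0.085), and it turned to 0.31 when scaled to the oocyte list, where FIGLA, another of the 7, also turned sign.

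**Figure D4:**
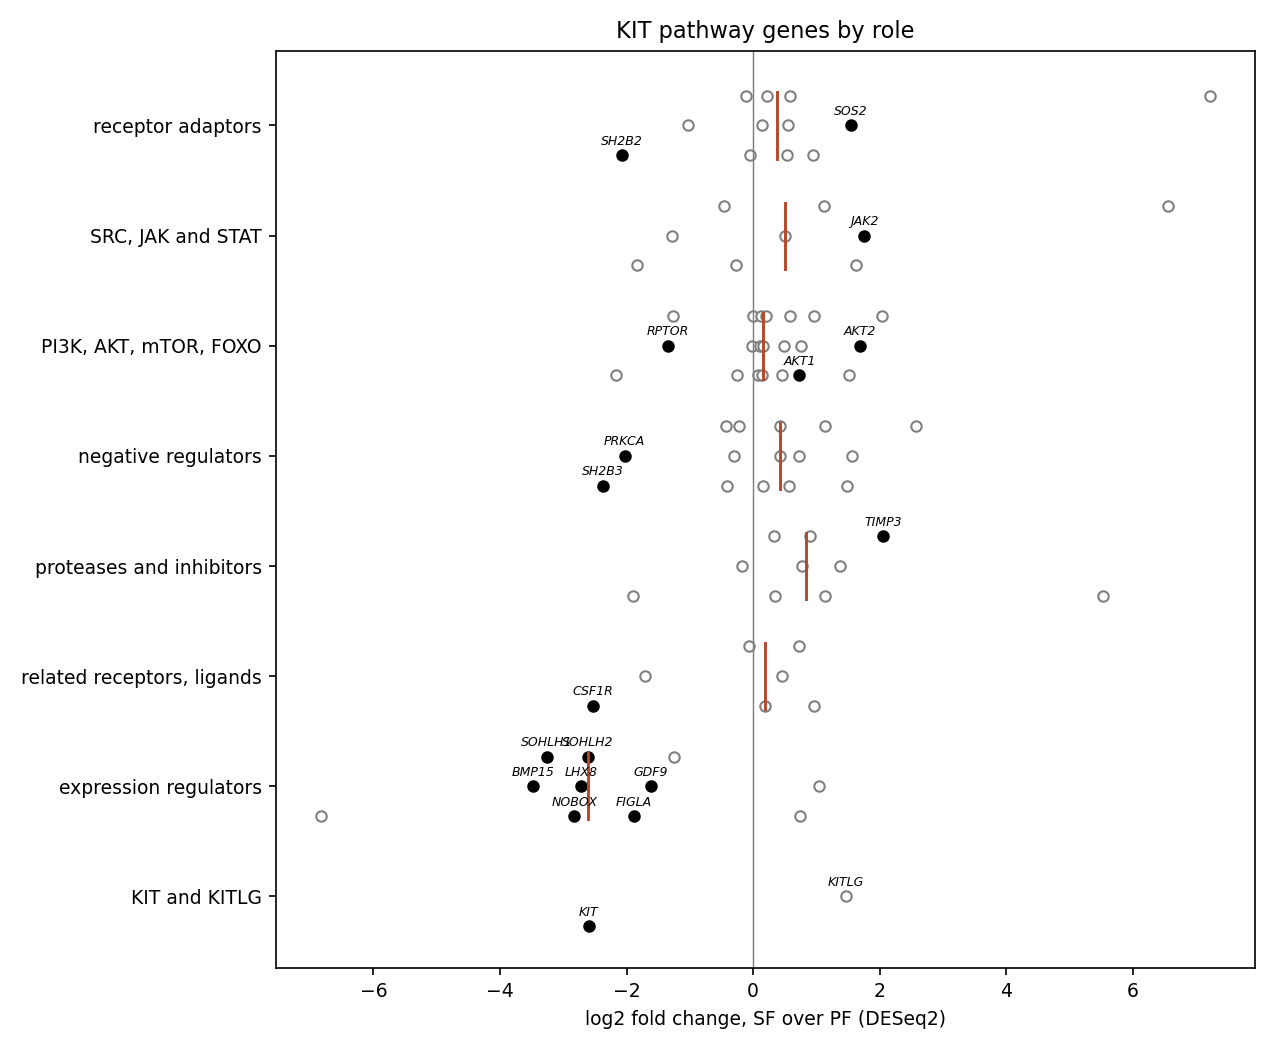
Log2 fold change of SF over PF (DESeq2) for the counted members of each list by role, with KIT and KITLG in the bottom line. Filled named points passed the threshold, open points did not, and the vertical bar in a line is the median of its list, which is -2.62 for the expression regulators and between 0.16 and 0.84 for the other lists; the vertical spread of points has no meaning.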

How the data were processed

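The authors amplified cDNA by SMART-Seq v4, without strand or molecule marks, trimmed reads with Trim Galore and quantified transcripts of ARS-UCD1.3 with Salmon (no versions given in the submitters' processing notes). The deposited tables hold an estimated count and a TPM per RefSeq transcript. Accessions matched 50205 transcripts (66.0%) to a RefSeq table of ARS-UCD2.0, used for names alone; the others, with 9.71% to 10.7% of the reads, stayed out of gene values. Values were summed per gene and estimated counts rounded.

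After the study's design, SF was compared with PF without PF replicate 4. DESeq2 1.42.0 (R 4.3.3) gave Wald tests, with Benjamini-Hochberg adjustment over all genes and a threshold of 0.05. On simulated data this test recovered the sign and size of changes, but a larger share of its calls than the threshold allows were unchanged genes. Alternatives were the edgeR 4.0.16 quasi-likelihood test, limma 3.58.1 with a pseudocount of 1 or 0.1 on log2 TPM of genes at 1 TPM or more in at least 3 libraries, other scalings and filters, a replicate block, and each library left out. Unmatched transcripts, the limma trend and, for pathway genes, the granulosa scaling were added after seeing the data. Within-library differences were tested by exact permutation in Python 3.11.15. No library was a duplicate: within a group, chi-square per degree of freedom was 97.8 to 628.

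Named genes were both members, up to 4 called genes with the smallest adjusted p of each pathway list, fixed core pathway genes, and the 5 nearest profiles of each member. FIGLA and single markers were chosen after their values were seen. Members and lists were chosen with earlier results of these data known. Some members of the pathway lists, and 1 list, are not reported here and are in no pathway count. Primordial follicles were not analysed here.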

Additional observations from a re-analysis of the deposited data

Results flagged for a closer look

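Samples far from the rest of their group were looked for in the 4 PF libraries, by the gap of the highest or lowest library to its neighbour over the whole range of the group, for 28 values. This check picks about 1 in 20 groups by chance, and it picked 6. KIT relative to the oocyte list was 2.35 in PF replicate 4, against -1.38 to -1.11 in the other PF libraries. In the same library GRB2 was at 212 TPM against 69.5 to 79.5 TPM, JAK2 at 15.5 TPM against 2.86 to 4.79 TPM, MMP9 at 21.2 TPM against 0 to 0.030 TPM, and PDGFRA at 117 TPM against 0.020 to 3.04 TPM. The sixth was CBL in PF replicate 1, at 7.49 TPM against 1.61 to 2.54 TPM. The 3 SF libraries are too few for the check.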

How the results depend on the processing

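KIT was lower in SF in all 22 alternative fits and kept its call in 16. It lost the call with edgeR (-2.52), limma (-2.68 with and without the filter, -2.92 with a pseudocount of 0.1), oocyte-list size factors (-0.75) and curated models alone (-1.89), and ranged from -2.92 to -2.15 with 1 library left out. KITLG gained a call with oocyte-list size factors (4.25), the replicate block (1.46, DESeq2 adjusted p = 0.0030) and without PF replicate 3 (range with 1 library left out 0.84 to 2.21), and turned to -0.062 with granulosa-list size factors. KITLG minus the granulosa list turned to -0.073 with all 7 libraries, -0.42 with the list's median and -0.60 within numbers above 40, and ranged from -0.32 to 0.75 with 1 library left out. KITLG minus KIT was 3.83 with all 7 libraries. The cause of these changes was not tested.

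DESeq2 called 2876 genes. The number was 0 with edgeR, 3 with limma, 60 with a pseudocount of 0.1, 1 without its filter and 792 with its trend, 8034 with oocyte-list and 7020 with granulosa-list size factors (99.5% and 1.61% of them higher in SF, against 42.6%), 858 with all 7 libraries and 1615 at a threshold of 0.01. It was 1887 to 3947 with 1 library left out, with 51.9%, 49.6% and 51.1% higher without PF replicates 1, 2 and 3. Same-numbered SF and PF libraries gave r = 0.26, -0.037 and 0.40 across genes for their deviations from the group means. Differently numbered libraries gave -0.42 to 0.26. These values cannot decide whether the numbers pair the samples, since deviations from a mean of 3 libraries are tied to each other. The replicate block called 4077 genes.

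Pathway genes that turned sign were, with all 7 libraries, GRB2 (-0.058), MMP9 (-3.60) and PDGFRA (-3.97), with oocyte-list size factors RPTOR (0.80), GDF9 (0.31) and ADAM17 (2.50), and with granulosa-list size factors GRB2 (-0.86), AKT1 (-0.61), PIK3CA (-0.031), FOXO3 (-1.15), CBL (-1.18) and PDGFRA (-1.13). With 1 library left out, CBL ranged from -0.16 to 0.90, ADAM17 from -0.45 to 0.40 and PDGFRA from -0.27 to 1.81. Limma on log2(TPM + 1) called none of the pathway genes, or 6 with a trend, and with all 7 libraries 4 of 17 remained called. The replicate block kept all 17 calls and also called PIK3CA (1.80, DESeq2 adjusted p = 0.021) and PIK3R1 (1.74, DESeq2 adjusted p = 1.1e-05). Amplified reads without molecular identifiers are not independent molecules.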
